A study of Saccharomyces cerevisiae with 3 samples.

Results

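The Ras, cAMP and protein kinase A pathway of budding yeast (Saccharomyces cerevisiae) was followed here through 9 of its genes. They were taken by name from the platform annotation, and all 9 were measured, among 5598 genes with a probe. They were the receptor gene GPR1, the Ras genes RAS1 and RAS2, the adenylate cyclase gene CYR1, the phosphodiesterase genes PDE1 and PDE2, the regulatory subunit gene BCY1 and the catalytic subunit genes TPK2 and TPK3. The genes RAS1, PDE1, PDE2, BCY1 and TPK2 had 2 probes each and the other 4 had 1. Total RNA of a gcr1 null mutant was hybridised in competition with that of its wild type on 2-colour arrays. Both strains grew in YEP medium, a rich broth of yeast extract and peptone, with 3% pyruvate, and were sampled in early to mid log phase at 0 min, just before glucose was added, and again 20 and 60 min after it. Each time had 1 array, so no value below has a replicate check and none was tested. GCR1 encodes an activator of glycolytic gene transcription, and the sources used here do not give the strain names, any marker used for the deletion or the concentration of added glucose.

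In yeast, glucose acts on this pathway by separate routes. A plasma membrane receptor of the G protein type, Gpr1, works through the G alpha protein Gpa2, and the small GTPases Ras1 and Ras2 work through guanine nucleotide exchange. Both routes lead to adenylate cyclase, which makes cAMP. cAMP binds the regulatory subunit Bcy1 and frees the catalytic subunits of protein kinase A, which favours growth and represses stress and storage genes. The phosphodiesterases Pde1 and Pde2 break cAMP down. Much of this control acts on the proteins and on cAMP itself, which an mRNA ratio does not measure.

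Every value is a log2 ratio of the strains, the mean over the probes of a gene unless a probe is named. A size of 1.0 is 2-fold. The labels do not state the numerator. The arrays are titled by the mutant and the design text names the mutant first, which makes mutant over wild type likely. The deleted gene itself had positive ratios (GCR1, 0.97, 0.91 and 1.51 at 0, 20 and 60 min), which goes against that direction if its probes lie in the deleted stretch. The sources used here do not give the position of those probes, so ratios are called positive or negative and no strain is called higher. A ratio also does not tell which of the strains changed between times. The median of all genes was 0.07, -0.08 and 0.05. Spread differed between arrays, with the middle 50% of genes between -0.15 and 0.27 on the 0 min array, from -0.70 to 0.64 on the 20 min array and from -0.57 to 0.68 on the 60 min array. Probe pairs of a gene differed by less than 0.41, 0.48 and 0.38 in 95% of pairs, an error that leaves out cultures, labelling and arrays.

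Of the 9 genes, PDE1 and RAS1 carried the large ratios, both after glucose and on opposite sides. PDE1 was 6.56-fold positive at 20 min and 11.1-fold positive at 60 min, while RAS1 was 2.96-fold and 2.74-fold negative. The other 7 genes stayed within 2-fold on all 3 arrays. At 0 min, 0 of the 9 were beyond 2-fold, against 3.34% of all genes. At 20 min 2 of 9 were (22.2%), against 33.6% of all genes, of which 17.1% were on the positive and 16.5% on the negative side. At 60 min it was again 2 of 9, against 29.8% of all genes, with 16.2% positive and 13.6% negative. With 9 genes these shares move in steps of 11.1%, and they are not read as a result about the set. Scaling the arrays to equal spread put RAS1, RAS2 and PDE1 beyond 2-fold at 0 min (3 of 9, against 20.4% of all genes) and left 2 of 9 at 20 min (against 21%) and at 60 min (against 20.3%). The median of the 9 genes was 0.34, 0.47 and 0.42, and 7 of 9 were above 0 on each array, where 59.2%, 47.1% and 52.1% of all genes were.

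**Figure D1:**
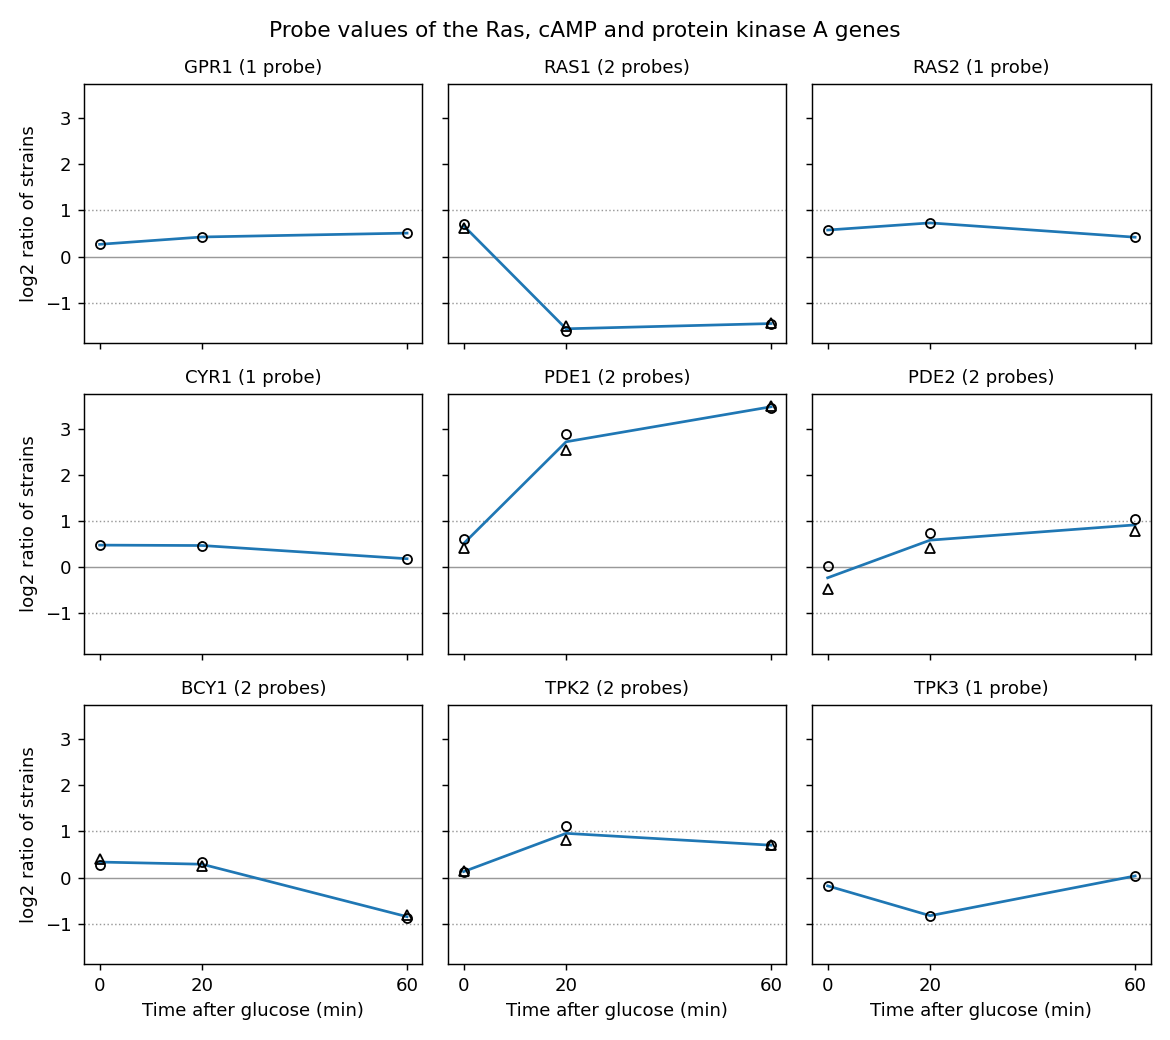
Log2 ratio of the strains (vertical axis) against time after glucose in minutes for each of the 9 genes, with open symbols for single probes, a line through the gene mean, and dotted lines at 2-fold. PDE1 climbs from 0.51 to 3.47, RAS1 goes from 0.67 to -1.57 and -1.45, and the other genes stay between the dotted lines except for 1 probe each of TPK2 and PDE2.

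The receptor came first in the order of the pathway and varied least. GPR1 (YDL035C), the gene of the glucose and sucrose sensing receptor, had ratios of 0.26, 0.42 and 0.51 at 0, 20 and 60 min on its 1 probe. These values lay above those of 74.2%, 68.8% and 68.8% of genes. All 3 arrays were thus on the positive side, and the largest difference between any of them was 0.24, below the 95% limit of probe pairs on each array.

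The Ras genes had like ratios on pyruvate and unlike ratios after glucose. Ras1 and Ras2 are related GTPases that activate adenylate cyclase, and Ras2 is the one mainly needed for growth on non-fermentable carbon. The log2 ratio of RAS1 (YOR101W) was 0.67 on pyruvate, then -1.57 and -1.45 at 20 and 60 min. Its probes were close together, at 0.71 and 0.62, then -1.62 and -1.51, then -1.46 and -1.44, so the turn from the positive to the negative side was read by both. RAS2 (YNL098C) had 0.57, 0.73 and 0.42 on its 1 probe and kept the positive side throughout.

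On pyruvate RAS1 ranked 196 from the top of 5596 genes and RAS2 ranked 315, the highest places among the 9 genes on that array, although both were within 2-fold. After glucose RAS1 ranked 327 from the bottom at 20 min and 361 from the bottom at 60 min. The difference between 20 and 0 min was -2.23 for RAS1, a 4.70-fold shift of the ratio, and 85th from the bottom of all genes. For RAS2 the same difference was 0.15. RAS1 minus RAS2 was 0.09 at 0 min, inside the probe error, and -2.29 and -1.87 at 20 and 60 min, which is several times the 95% limit of probe pairs. Whether probes of one Ras gene bind cRNA of the other was not tested.

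Adenylate cyclase, the enzyme that both routes meet at, showed small ratios. CYR1 (YJL005W) had 0.475, 0.47 and 0.18 on its 1 probe, in the same order of times. On the narrow 0 min array this stood above 91.0% of genes, and at 60 min above 55.4%. The difference of 60 minus 0 min was -0.295 as deposited and -0.87 after scaling to equal spread, so its size depended on the scaling.

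**Figure D2:**
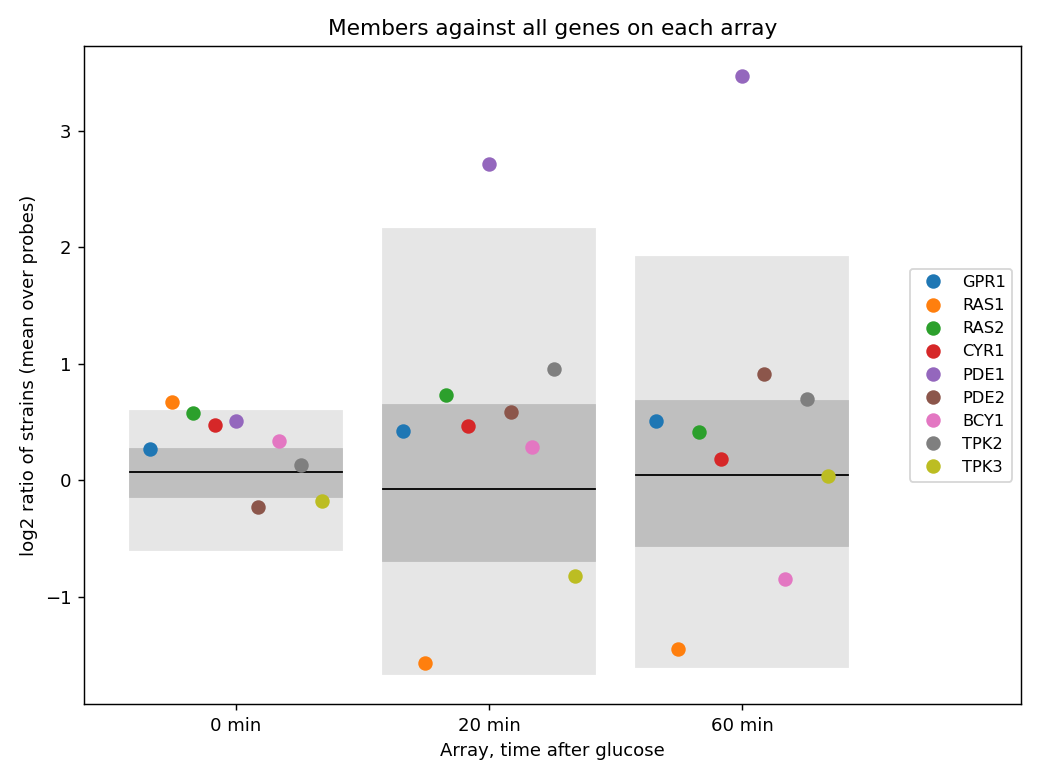
Log2 ratio of the strains (vertical axis) for the 9 genes as coloured points on the arrays at 0, 20 and 60 min, over all measured genes, whose middle 90% is light grey, middle 50% dark grey and median a black line. RAS1 lies above the light band at 0 min and near its lower edge afterwards, and PDE1 lies above it at 20 and 60 min.

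The phosphodiesterases were both more positive after glucose than before, by very different amounts. Pde1 is the low-affinity cAMP phosphodiesterase, known in yeast for damping the cAMP response to added glucose, and Pde2 is the high-affinity form that sets the basal cAMP level. PDE1 (YGL248W) stood at 0.51 on pyruvate and at 2.71 and 3.47 on the later arrays. Its probes gave 0.61 and 0.41, then 2.89 and 2.54, then 3.45 and 3.49, so both were beyond 2-fold at both times after glucose. At 60 min PDE1 was 46th from the top of 5596 genes.

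The ratio of PDE1 moved in 2 steps of unequal size. It was 2.21 higher at 20 min than at 0 min, a 4.61-fold shift, and 0.76 higher at 60 min than at 20 min. The whole difference from 0 to 60 min was 2.96, a 7.80-fold shift and 57th from the top of all genes. The same scaling took the first step to 1.04 and the whole to 1.68.

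PDE2 (YOR360C) stood at -0.23, 0.58 and 0.91. Its probes were 0.012 and -0.48 at 0 min, a gap of 0.49 that is wider than in 97.9% of probe pairs, so its side on pyruvate was not settled. At 60 min they were 1.04 and 0.79, on either side of the 2-fold line. The difference of 60 minus 0 min was 1.03 and 1.27 by probe, in the same order, and 1.15 in the mean, so both probes passed 2-fold. PDE1 minus PDE2 was 0.74 on pyruvate, then 2.13 and 2.56, so the gap between them was wider on each later array, though after scaling it was 1.79, 1.60 and 2.04 and this order was lost.

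**Figure D3:**
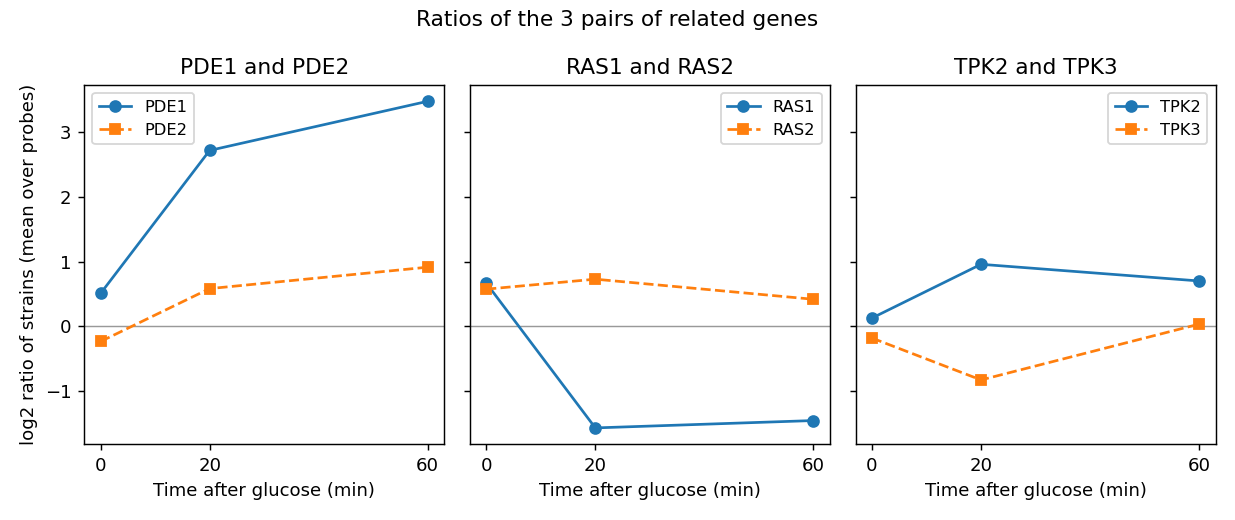
Log2 ratio of the strains (vertical axis, mean over probes) against time after glucose in minutes for PDE1 and PDE2, RAS1 and RAS2, and TPK2 and TPK3. The PDE genes run upward together with PDE1 2.56 above PDE2 at 60 min, the RAS genes part after 0 min, and the TPK genes are farthest apart at 20 min.

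The subunits of the kinase differed among themselves and in time. BCY1 (YIL033C), which holds the catalytic subunits inactive until cAMP binds, had 0.34, 0.29 and -0.85 at 0, 20 and 60 min. Its probes gave 0.27 and 0.40, then 0.34 and 0.24, then -0.885 and -0.81. It was thus flat over the first interval and lower at the end, by -1.14 from 20 to 60 min, and both probes had this shift beyond 2-fold.

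BCY1 was the 1 member whose ratio shifted by 2-fold or more between 20 and 60 min, against 18.6% of all genes. After scaling to equal spread its shift was -0.99, within 2-fold, and 0 of 9 members passed, against 10.4% of all genes. Between 0 and 20 min RAS1 and PDE1 did (2 of 9, against 32.5%), and PDE2 joined them after scaling at 1.23 (3 of 9, against 31.9%). Between 0 and 60 min RAS1 and BCY1 shifted to the negative side and PDE1 and PDE2 to the positive side (4 of 9, 44.4%, against 28.7% of all genes, 15.4% positive and 13.3% negative). The differences of 20 minus 0 min and of 60 minus 0 min share the 0 min array.

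The catalytic subunits phosphorylate the targets of the pathway. TPK2 (YPL203W) is known in yeast for its role in filamentous growth, and TPK3 (YKL166C) for effects on mitochondria. The ratios of TPK2 were 0.13, 0.96 and 0.70. At 20 min its probes gave 1.11 and 0.81, and the first of these equals a ratio of small whole numbers, the mark of a dim spot or a coincidence, so the mean rests partly on an uncertain value. Centring the array on its median took TPK2 to 1.04 at 20 min, just past 2-fold. The other 41 of 42 probe values of the 9 genes carried no such mark.

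TPK3 was at -0.18 on pyruvate, -0.83 after 20 min and 0.035 after 60 min of glucose on its 1 probe. Its values at 0 and 20 min were below those of 78.2% and 79.2% of genes, and its 60 min value was near the median. The difference of 20 minus 0 min was -0.65 as deposited and 0.047 after scaling to equal spread, so it depended on the scaling. TPK2 minus TPK3 was 0.31, 1.78 and 0.67, so their ratios were farthest apart 20 min after glucose. After scaling this held, at 1.34 beside 0.75 at 0 min and 0.53 at 60 min. Whether either probe set binds cRNA of related kinase genes was not tested.

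Genes listed as acting on Ras were mostly within 2-fold, as were most genes on each array. Of 10 genes listed for its activation, inhibition and membrane processing, 0 were beyond 2-fold at 0 min, against 3.34% of all genes. At 20 min 1 was positive and 0 negative, against 17.1% and 16.5%. Centring made this 2 genes and scaling to equal spread 0, against 33% and 21% of all genes on either side. At 60 min 1 was positive and 1 negative, against 16.2% and 13.6%. The list medians were 0.11, -0.12 and 0.49, and with 10 genes these counts are not read as a result about the list. SDC25, a relative of the exchange factor CDC25, had 0.011, 0.94 and 2.04, and its 20 min value bore the mark of low signal described for TPK2. STE24, the 1 negative gene at 60 min, had -0.28, -0.999 and -1.35. It encodes a protease known for maturing the a-factor pheromone, so that call is not read as one about Ras. SHR5, part of the Ras palmitoyltransferase, had 0.62, 1.06 and 0.04. The exchange factor CDC25 itself had 0.38, -0.24 and -0.06, and the Ras inhibitors IRA1 and IRA2 had 0.37 and 0.90 at 60 min. The values of CDC25, IRA1 and IRA2 were picked for their roles after they were seen.

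Some partners of the receptor and of adenylate cyclase had larger ratios than GPR1 and CYR1. Of 7 such genes 2 were positive beyond 2-fold at 20 min, against 17.1% of all genes, and 2 were positive and 2 negative at 60 min, against 16.2% and 13.6%. The medians were 0.25, 0.32 and 0.86. Scaling to equal spread left 1 positive at 20 min and 1 on each side at 60 min, against 21% and 20.3% of all genes on either side. Centring took the positive count at 60 min to 1. SRV2, the cyclase-associated protein that also binds actin, had 0.51, 2.14 and 1.02. PLC1, a phospholipase C that binds Gpr1, had 0.25, 1.07 and 2.0. On the negative side at 60 min were ASC1, a ribosomal protein that binds Gpa2, with -0.08, -0.58 and -1.94, and RGS2, which turns Gpa2 off, with 0.21, 0.32 and -1.02.

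Genes under the control of the kinase were on the positive side after glucose where they were beyond 2-fold. Among 13 genes whose proteins protein kinase A phosphorylates or controls, 5 were positive beyond 2-fold at 20 min, against 17.1% of all genes, and 6 at 60 min, against 16.2%. None was negative beyond 2-fold, where 16.5% and 13.6% of all genes were, and the medians were 0.30, 0.52 and 0.78. Scaling to equal spread kept 5 positive at 20 min, where 21% of all genes were then beyond 2-fold on either side. At 60 min it left 3 of 13 positive, against 20.3% of all genes on either side. The stress activator MSN2 had 0.17, 2.13 and 1.22, whereas its relative MSN4 had -0.01, -0.15 and -0.36. ADR1, activator of genes for ethanol and glycerol use, had 0.26, 2.76 and 1.01, SOK2, a repressor of filamentous growth, had 0.46, 1.64 and 1.40, and FBP1, the gluconeogenic fructose bisphosphatase, had -0.42, 2.15 and 2.28. The kinases RIM15 and YAK1, which oppose the pathway, were within 2-fold, at 0.30, 0.52 and 0.78 and at 0.34, -0.78 and -0.15. MSN4, RIM15 and YAK1 were picked after their values were seen.

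Genes known to be repressed by high kinase activity had the largest ratios of the lists. Of 15 such genes 9 were positive and 1 negative beyond 2-fold at 20 min, against 17.1% and 16.5% of all genes, and 8 were positive and 0 negative at 60 min, against 16.2% and 13.6%. The medians were 0.55, 1.33 and 1.14. Centring ended the negative call. Scaling to equal spread put 9 positive and 1 negative already at 0 min. It left 8 positive at 20 min and 6 at 60 min, against 21% and 20.3% of all genes on either side. The scaled medians were 1.15, 1.05 and 0.87, so the median was no longer higher after glucose than on pyruvate. That scaling also took the share of all genes beyond 2-fold at 0 min from 3.34% to 20.4%. The largest were CTT1, a catalase (4.51 at 20 min and 3.66 at 60 min), YGP1, a secreted glycoprotein gene (3.64 and 4.50), HSP12, a membrane stress protein (4.42 and 2.50), and UBI4, the polyubiquitin gene (3.53 and 3.06). They were not alike, since GAC1, a phosphatase subunit for glycogen synthesis, had -1.06 at 20 min, a value with the mark of low signal. The chaperone gene SSA3 had -0.185, -0.18 and -0.18, and the trehalose synthesis gene TPS2 had 0.67, 0.32 and 0.34. These 3 were picked after their values were seen, and the list overlaps with general stress genes that other pathways also control.

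Filamentous growth genes, where TPK2 is known to act, were on the negative side at 20 min. All 8 were below 0 there, against 52.9% of all genes, and 4 were beyond 2-fold, against 16.5%, with list medians of -0.32, -1.11 and -0.33. After scaling to equal spread the medians were -0.95, -0.77 and -0.30. Then 4 genes were beyond 2-fold at 0 min and 3 at 20 min, against 20.4% and 21% of all genes on either side. With that scaling 20 min no longer stood out. STE12, the transcription factor of mating and filamentation, had -0.39, -1.83 and -0.30, and FLO10, a cell surface adhesin gene, had -0.29, -1.64 and -0.62. MGA1, a heat shock factor relative, had -0.57, -1.48 and -3.75. The values of FLO10 at 20 min and of MGA1 at 20 and 60 min bore the mark of low signal. The count beyond 2-fold at 20 min thus rests partly on uncertain values. KSS1, the filamentation kinase, was on the positive side at 60 min, with -0.08, -0.30 and 1.30. FLO11, the main adhesin, had values between -0.38 and -0.36 on all 3 arrays and was picked after that was seen.

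The Snf1 kinase, which opposes glucose repression and is the other main carbon-sensing kinase, gave the nearest comparison. Its 10 genes had medians of 0.24, 0.10 and 0.36, beside 0.34, 0.47 and 0.42 for the 9 genes above, and the difference could not be tested with 1 array per time. At 20 min 1 of the 10 was positive and 1 negative beyond 2-fold, against 17.1% and 16.5% of all genes. At 60 min 1 was positive and 0 negative, against 16.2% and 13.6%. Beyond 2-fold were TOS3, one of its upstream kinases, with 0.33, 2.57 and 1.60, and SAK1, another of them, with -0.12, -1.30 and -0.55. Scaling to equal spread ended the call of SAK1. At 20 min these kinase genes lay on opposite sides, as RAS1 and RAS2 did.

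**Figure D4:**
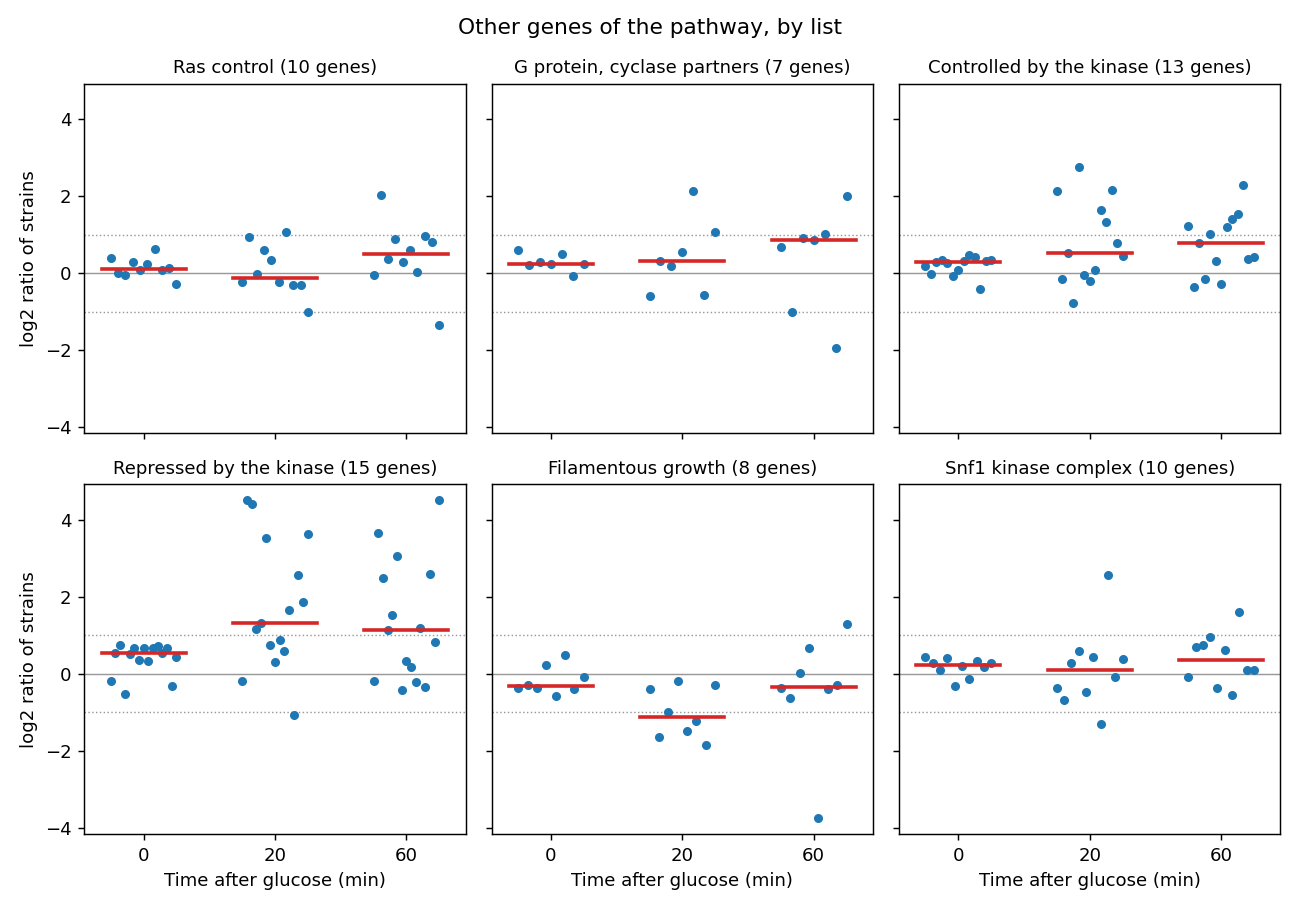
Log2 ratio of the strains (vertical axis) for each gene (blue points) of the 6 other lists at 0, 20 and 60 min after glucose, with the list median in red and dotted lines at 2-fold. In these values as deposited, without scaling to equal spread, the 15 genes repressed by the kinase have medians of 0.55, 1.33 and 1.14. All 8 filamentous growth genes lie below 0 at 20 min.

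Genes with the pattern nearest to PDE1 and RAS1 were found by the distance between their 3 log2 ratios, among 5592 other genes with a value on every array. Nearest to PDE1 were HMX1, a haem oxygenase (0.37, 2.70 and 3.46, at a distance of 0.14), YPR1, an aldo-keto reductase (0.53, 2.86 and 3.66, at 0.24), and DAK1, a dihydroxyacetone kinase (distance 0.26). Nearest to RAS1 were TOF1, a replication fork protein (0.47, -1.39 and -1.34, at a distance of 0.29), IPT1, of sphingolipid synthesis (distance 0.31), and NOP4, of 60S ribosomal subunit assembly (distance 0.32). With arrays scaled to equal spread YPR1 was still among the 3 nearest to PDE1, while the 3 nearest to RAS1 were others. Over 3 arrays such likeness is a description only.

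The genes next to RAS1, PDE1 and BCY1 on the chromosome had other ratios than these. CRC1, a carnitine carrier gene that precedes RAS1, had 0.95, 1.68 and 1.12 where RAS1 had 0.67, -1.57 and -1.45, and OST2, which follows it, had 0.34, 0.76 and 1.30. Beside PDE1, ZIP2 had -1.23, -0.84 and 0.68, and BRR6 had -0.05, -1.01 and -0.28. Next to BCY1, at -0.85 at 60 min, CAP2 had 1.34 and ULP2 had 0.05. Not every neighbour of a member differed from it. HRR25, before TPK2, had 0.06, 0.57 and 0.73 where TPK2 had 0.13, 0.96 and 0.70. AFT2, which follows TPK2, had -0.075, -0.90 and -0.375. Neighbours of the other members are not given. The flanking genes were looked up after the ratios were seen, by gene order in RefSeq's annotation of the reference strain.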

How the data were processed

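The deposited values were log2 ratios between the channels of 3 arrays for 10807 probes. That the base is 2 was inferred from tied values, which lie at log2 ratios of small integers. Per the labels, cRNA was made with Agilent's linear amplification kit and carried Cy5 in channel 1 and Cy3 in channel 2, with no dye-swapped array analysed here. The sources used here do not give the authors' scanning, background correction or normalisation. Intensities were not used, and precision is limited by the number of arrays. The platform annotation named 9202 probes with 1 gene, 0 with several and 1605 with none, and 9194 matched RefSeq's R64 gene table. Probes of a gene were averaged in pandas 2.3.3 and genes were called at 2-fold. A probe was of low signal when its value was missing or within 0.001 of log2(a/b), with a and b integers from 1 to 8, once the array's most common value was subtracted. That most common value was negative on each array, at -0.33, -0.475 and -0.747 at 0, 20 and 60 min. All 9 members were named with their probes. From each other list up to 4 genes beyond 2-fold were named by size, and for members beyond 2-fold the 3 nearest genes. Members and lists were chosen with earlier results of these data known. Calculations were tested on simulated data. Alternatives were centring, equal spread, other thresholds, single probes and no low-signal probes. No sequences were used.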

Additional observations from a re-analysis of the deposited data

Results flagged for a closer look

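The log2 ratio of RAS1 was positive on pyruvate and negative after glucose, in each case by more than 95% of probe pairs differ. The difference between times was -2.23 for 20 minus 0 min and -2.12 for 60 minus 0 min. Both differences share the 0 min array, each time had 1 array, and the difference between times was not tested.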

How the results depend on the processing

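No paired analysis was possible because each time point had 1 array with no replicate number. Members beyond the threshold numbered 0, 2 and 2 of 9 at 0, 20 and 60 min. At a 1.5-fold threshold they numbered 1, 5 and 5, against 10.6%, 55.6% and 52.8% of all genes. At a 3-fold threshold they numbered 0, 1 and 1, against 1.3%, 14.6% and 12.9%. With arrays scaled to equal spread they numbered 3 at 0 min (RAS1, RAS2 and PDE1 at 1.44, 1.21 and 1.05), where 20.4% of all genes were beyond 2-fold, and 2 at both later times, against 21% and 20.3%. Centring took the 20 min count to 3, against 33%, by adding TPK2 at 1.04. The median of the members at 0 min went from 0.34 to 0.64 with equal spread. Of 27 ratios of members, 2 changed side under an alternative, TPK3 at 60 min and PDE2 at 0 min. TPK3 was near 0 there, at 0.035. PDE2 was at -0.23, above 18.3% of genes on that array, and changed side only by its probe at 0.012. Scaling also took the difference of 20 minus 0 min for RAS2 from 0.15 to -0.61 and for CYR1 from -0.009 to -0.57. For TPK3 it took that difference from -0.65 to 0.047. The difference of 60 minus 20 min for BCY1 went from -1.14 to -0.99. With equal spread, the genes repressed by the kinase gave 10 of 15 beyond 2-fold at 0 min, in place of 0. The share of all genes there was 20.4%, in place of 3.34%. Those controlled by the kinase gave 3 of 13 in place of 6 at 60 min, against 20.3% in place of 29.8% of all genes.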
